A study of Mus musculus with 58 samples.

Results

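Macrophage and monocyte genes were described as a module of 38 genes chosen by symbol, of which 37 had a named probe set among the 23185 named genes of the arrays. Lyz2, the main macrophage lysozyme gene of the mouse, was the member not analysed here. RNA of the diaphragm (DIA), the main breathing muscle, and of the tibialis anterior (TA), a muscle of the lower hind limb, was hybridised to 58 expression arrays. The tumour group (PDX, patient-derived xenograft) held adult female NSG mice with pieces of pancreatic ductal adenocarcinoma from cachectic patients attached to the pancreas. The sham group held NSG mice that had the surgery and received no tumour. Tumours of 4 patients made 4 cohorts, and tissue was taken once the tumour-bearing mice had severe cachexia or a tumour past a set size. Each muscle had 17 PDX arrays (3, 5, 5 and 4 in cohorts 1, 2, 3 and 4) and 12 sham arrays (3 in each cohort). NSG mice, PDX and sham alike, lack mature T, B and NK cells and keep monocytes, macrophages and neutrophils. The labels do not state that each array was a separate animal, so the spread behind each p-value is that between samples and may be partly technical.

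Tissue macrophages take up debris and dying cells and are kept alive by signals through the receptor Csf1r. Some settle before birth and renew in place, and others come from blood monocytes that leave the bone marrow and enter tissue through the chemokine receptor Ccr2. In skeletal muscle, macrophages lie in the connective tissue around fibres and vessels. They clear damaged fibres and take part in repair after injury. The members were grouped by their best-known roles into 7 genes of resident macrophages, 5 of scavenging and lysosomal uptake, 8 measured genes of monocytes, 8 common to macrophages, 7 receptors and adaptors, and 2 effectors. The groups share cells: Lyve1 and Stab1 are also made by lymphatic and other endothelium, and Itgam, Cd14 and the Fc receptors by neutrophils. In bulk tissue, a change in the number of cells of a type and a change in RNA per cell cannot be told apart.

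The transcription factor PU.1, encoded by Spi1, binds purine-rich sites in the promoters of many macrophage genes. RefSeq promoter windows (build GRCm38.p6, 250 bases before to 50 bases after a gene's start) were listed for 26 of the 37 measured members, and the PU.1 core GAGGAAG was searched on both strands. It was present in the windows of 9 of the 26 members (34.6%), against 15.4% of the 27025 genes with an entry. Of the 21 members with an entry that rose in the diaphragm of PDX mice, 7 had the core (33.3%), as did 2 of the 5 (40.0%) that did not pass that test. A match is a description of these letters and not a binding site. The windows given here are those of 2 members that rose, Mrc1 and F13a1, and of Itgam, which did not pass the test and also holds the core. Capitals mark the core, written as CTTCCTC where it lies on the other strand.
Mrc1 (chr2:14229164-14229463, + strand): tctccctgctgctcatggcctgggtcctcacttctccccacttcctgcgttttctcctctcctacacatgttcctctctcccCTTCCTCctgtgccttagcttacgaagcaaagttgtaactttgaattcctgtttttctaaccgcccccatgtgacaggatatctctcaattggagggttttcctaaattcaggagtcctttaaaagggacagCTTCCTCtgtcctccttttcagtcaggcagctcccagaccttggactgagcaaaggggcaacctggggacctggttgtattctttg
F13a1 (chr13:37050195-37050494, - strand): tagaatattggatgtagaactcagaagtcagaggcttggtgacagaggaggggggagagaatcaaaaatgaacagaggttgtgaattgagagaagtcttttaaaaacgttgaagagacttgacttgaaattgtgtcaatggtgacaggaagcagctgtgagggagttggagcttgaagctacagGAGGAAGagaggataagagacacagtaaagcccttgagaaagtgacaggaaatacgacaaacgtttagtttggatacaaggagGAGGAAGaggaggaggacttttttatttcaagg
Itgam (chr7:128062390-128062689, + strand): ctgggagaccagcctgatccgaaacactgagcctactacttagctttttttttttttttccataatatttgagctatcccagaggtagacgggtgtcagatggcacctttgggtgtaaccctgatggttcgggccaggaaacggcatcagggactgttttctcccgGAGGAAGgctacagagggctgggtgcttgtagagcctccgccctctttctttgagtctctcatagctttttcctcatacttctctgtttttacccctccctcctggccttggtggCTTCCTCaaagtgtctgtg
Both matches of Mrc1 lie on the other strand, both of F13a1 on the gene's own strand, and Itgam has a match on each. F13a1 had a second listed start, whose window also holds the core.

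Macrophage and monocyte genes were higher in the diaphragm of PDX mice than in that of sham mice. The mean log2 expression of the 37 members per array ran from 5.098 to 6.384 (median 5.581) in PDX diaphragms, against 4.572 to 5.251 (median 4.917) in sham diaphragms. The ranges overlapped in a narrow band. In the tibialis anterior the same mean ran from 3.893 to 4.373 (median 4.091) in PDX mice, against 3.932 to 4.357 (median 4.084) in sham mice, and the ranges almost coincided. The tumour effect below is the log2 difference PDX minus sham, averaged with equal weight over the 4 cohorts and tested with limma, with Benjamini-Hochberg adjustment over all named genes and a threshold of 0.05.

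In the diaphragm, 29 of 37 members rose, where 5.89% of all genes did. None fell by limma at an adjusted p under 0.05, where 6.58% of all genes did, and at an unadjusted p under 0.05 the count was 0 as well, where 12.5% of all genes did. The median log2 difference of the members was 0.76, against -0.00432 over all genes, and 36 of 37 lay above 0. In all 4 cohorts 29 members were higher in PDX mice, against 12.2% of all genes. For 4 members, Mrc1, Ms4a7, Ms4a6d and Csf2rb, every PDX diaphragm lay above every sham diaphragm, a pattern that 0.069% of all genes had.

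**Figure D1:**
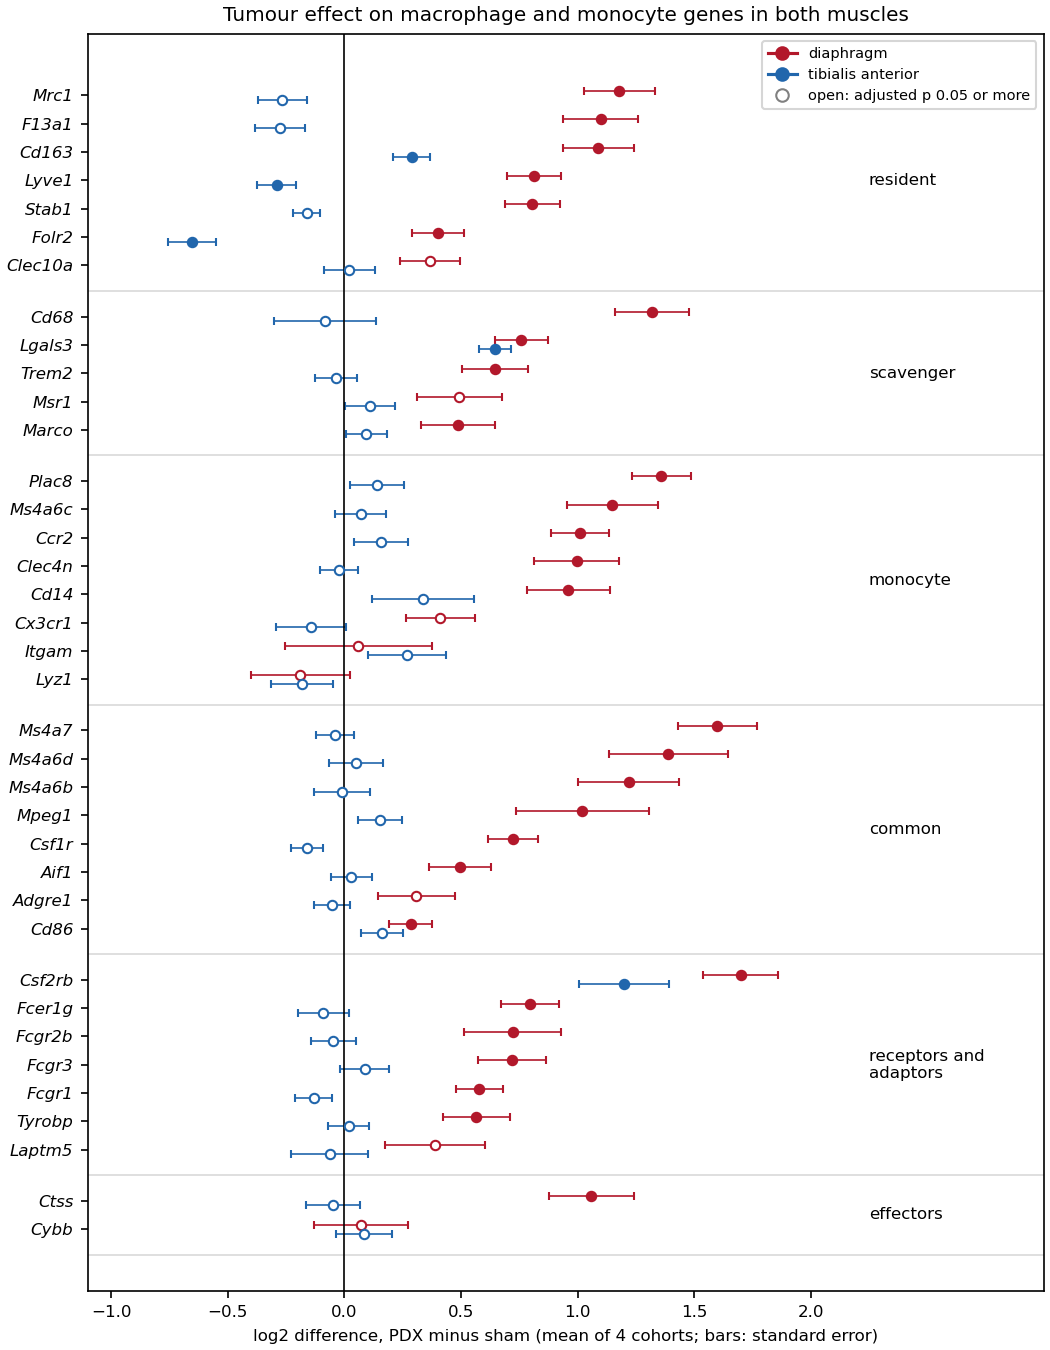
Tumour effect on each measured member. The horizontal axis is the log2 difference PDX minus sham (mean of 4 cohorts) with bars of 1 standard error, diaphragm in red and tibialis anterior in blue, ordered by role and by the diaphragm difference. Filled points passed the adjusted threshold of 0.05: 29 in the diaphragm, all above 0, and 5 in the tibialis anterior, of which 3 lie above 0.

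Among the resident macrophage genes, 6 of 7 rose in the diaphragm. Mrc1, the mannose receptor, had a log2 level of 7.17 to 8.84 (median 7.72) in PDX diaphragms, against 6.14 to 7.05 (median 6.63) in sham diaphragms. The groups did not overlap, and the difference was 1.18 ± 0.15 (SE), a fold change of 2.26 with adjusted p = 2.33e-05 by limma. F13a1, the A chain of coagulation factor XIII, ran from 6.75 to 8.86 (median 7.39) in PDX and from 5.96 to 7.42 (median 6.63) in sham diaphragms. The groups overlapped from the lowest PDX array to the highest sham array, and the difference was 1.10 ± 0.16 (2.15-fold, limma adjusted p = 6.87e-05). Cd163, the receptor for haemoglobin bound to haptoglobin, ran from 4.96 to 7.01 (median 5.43) in PDX and from 4.25 to 5.25 (median 4.72) in sham diaphragms, with a short overlap. Its difference was 1.09 ± 0.15 (2.13-fold, limma adjusted p = 4.11e-05). The hyaluronan receptor Lyve1 and the scavenger receptor Stab1 each rose by a log2 difference of 0.81, and the folate receptor Folr2 by 0.40, a call lost in fits without cohort 1, without cohort 2, with the cohort as the replicate or with the fibroblast mean as a covariate. The lectin Clec10a, whose mean was below 3.78, the median of all values, in every group, had a difference of 0.37 (adjusted p = 0.0638) and did not pass.

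Of the 5 scavenging and lysosomal genes, 4 rose in the diaphragm. Cd68, a glycoprotein of macrophage endosomes and lysosomes, ran from 6.78 to 8.84 (median 7.96) in PDX diaphragms, against 6.05 to 7.39 (median 6.57) in sham diaphragms. The groups shared the band between 6.78 and 7.39, and the difference was 1.32 ± 0.16 (2.50-fold, limma adjusted p = 8.49e-06). Lgals3, which encodes galectin-3, ran from 6.63 to 8.0 (median 7.22) in PDX and from 5.90 to 7.07 (median 6.55) in sham diaphragms, overlapping in between, and differed by 0.76 ± 0.11 (1.69-fold, limma adjusted p = 8.91e-05). Trem2, a lipid-sensing receptor, ran from 4.46 to 5.94 (median 5.10) in PDX and from 4.21 to 5.02 (median 4.45) in sham diaphragms, which overlapped in the upper part of the sham range. Its difference was 0.65 ± 0.14 (1.56-fold, limma adjusted p = 0.00299). The call of Trem2 was lost without cohort 1. On the diaphragm arrays of cohorts 2, 3 and 4 with little liver RNA, the difference of Trem2 was 0.51. The scavenger receptors Marco and Msr1 had like differences, both 0.49, with adjusted p of 0.0425 for Marco, which passed, and 0.0778 for Msr1, which did not. Marco's call was lost in 20 of the 29 fits that left out 1 diaphragm array, with adjusted p between 0.018 and 0.0906 over those fits. On the diaphragm arrays of cohorts 2, 3 and 4 with little liver RNA, its difference was 0.08. Its highest level, 6.24 in PDX cohort 1 replicate 3, was on an array rich in liver RNA (mean of hepatocyte genes 9.93). The part of liver RNA in the higher Marco was not tested.

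Among the 8 measured monocyte genes, 5 rose in the diaphragm. Plac8, which is high in freshly recruited monocytes, ran from 3.54 to 5.83 (median 4.68) in PDX diaphragms, against 3.10 to 3.70 (median 3.21) in sham diaphragms. The lowest PDX array alone was below the highest sham array, and the difference was 1.36 ± 0.13 (2.56-fold, limma adjusted p = 5.61e-07). Ms4a6c, a membrane protein of the MS4A family, ran from 3.53 to 6.23 (median 4.44) in PDX and from 3.07 to 3.85 (median 3.54) in sham diaphragms, with the lowest PDX array alone inside the sham range. It differed by 1.15 ± 0.20 (2.22-fold, limma adjusted p = 0.000335). Ccr2, the receptor through which monocytes follow CCL2-type chemokines, ran from 3.31 to 5.44 (median 4.17) in PDX and from 2.92 to 3.86 (median 3.27) in sham diaphragms. The groups overlapped, and the difference was 1.01 ± 0.12 (2.02-fold, limma adjusted p = 1.37e-05). The fungal pattern receptor Clec4n (dectin-2) rose by 1.00 and the lipopolysaccharide co-receptor Cd14 by 0.96. The fractalkine receptor Cx3cr1 had a difference of 0.41 (adjusted p = 0.0696), the integrin Itgam of 0.06 (adjusted p = 0.949) and the lysozyme gene Lyz1 of -0.19 (adjusted p = 0.684). Lyz1 was the single member with a negative diaphragm difference, and its probe set may also take up RNA of the near-identical Lyz2.

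Of the 8 genes common to macrophages, 7 rose in the diaphragm, and 3 of the MS4A family, membrane proteins whose genes lie in a cluster and resemble each other, led them. Ms4a7 ran from 3.49 to 5.62 (median 4.33) in PDX diaphragms, against 2.50 to 3.32 (median 2.83) in sham diaphragms. The groups did not overlap, and the difference was 1.60 ± 0.17 (3.03-fold, limma adjusted p = 2.36e-06). Ms4a6d ran from 3.46 to 6.10 (median 4.18) in PDX and from 2.41 to 3.39 (median 2.96) in sham diaphragms, also without overlap, and differed by 1.39 ± 0.26 (2.63-fold, limma adjusted p = 0.000657). Ms4a6b ran from 3.45 to 6.21 (median 4.55) in PDX and from 3.00 to 4.25 (median 3.62) in sham diaphragms, which overlapped, and differed by 1.22 ± 0.22 (2.32-fold, limma adjusted p = 0.000468). The probe sets of Ms4a6b, Ms4a6c and Ms4a6d may share signal. Mpeg1, a pore-forming protein of phagosomes, rose by 1.02, the growth factor receptor Csf1r by 0.72, the actin-binding protein gene Aif1 (Iba1) by 0.50 and the co-stimulatory Cd86 by 0.28. Aif1 kept its call in 11 of 16 alternatives and Cd86 in 6 of 16. Both lost it with the cohort as the replicate, the fibroblast mean as a covariate, or the replicate block by sample number (adjusted p of 0.0821 and 0.097). That block joins sham and PDX samples of the same cohort and number, which come from different animals. Cd86 also lost its call in 16 of 29 fits that left out 1 array, with adjusted p up to 0.0933. Adgre1, an adhesion receptor much used to mark mouse macrophages, had a difference of 0.31 (adjusted p = 0.269). In sham diaphragms 11 of the 37 members, Ms4a7, Ms4a6b, Ms4a6c, Ms4a6d, Plac8, Ccr2, Fcgr1, Clec4n, Aif1, Cd86 and Clec10a, had means below 3.78, where probe signal lies near background and fold changes may be understated.

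**Figure D2:**
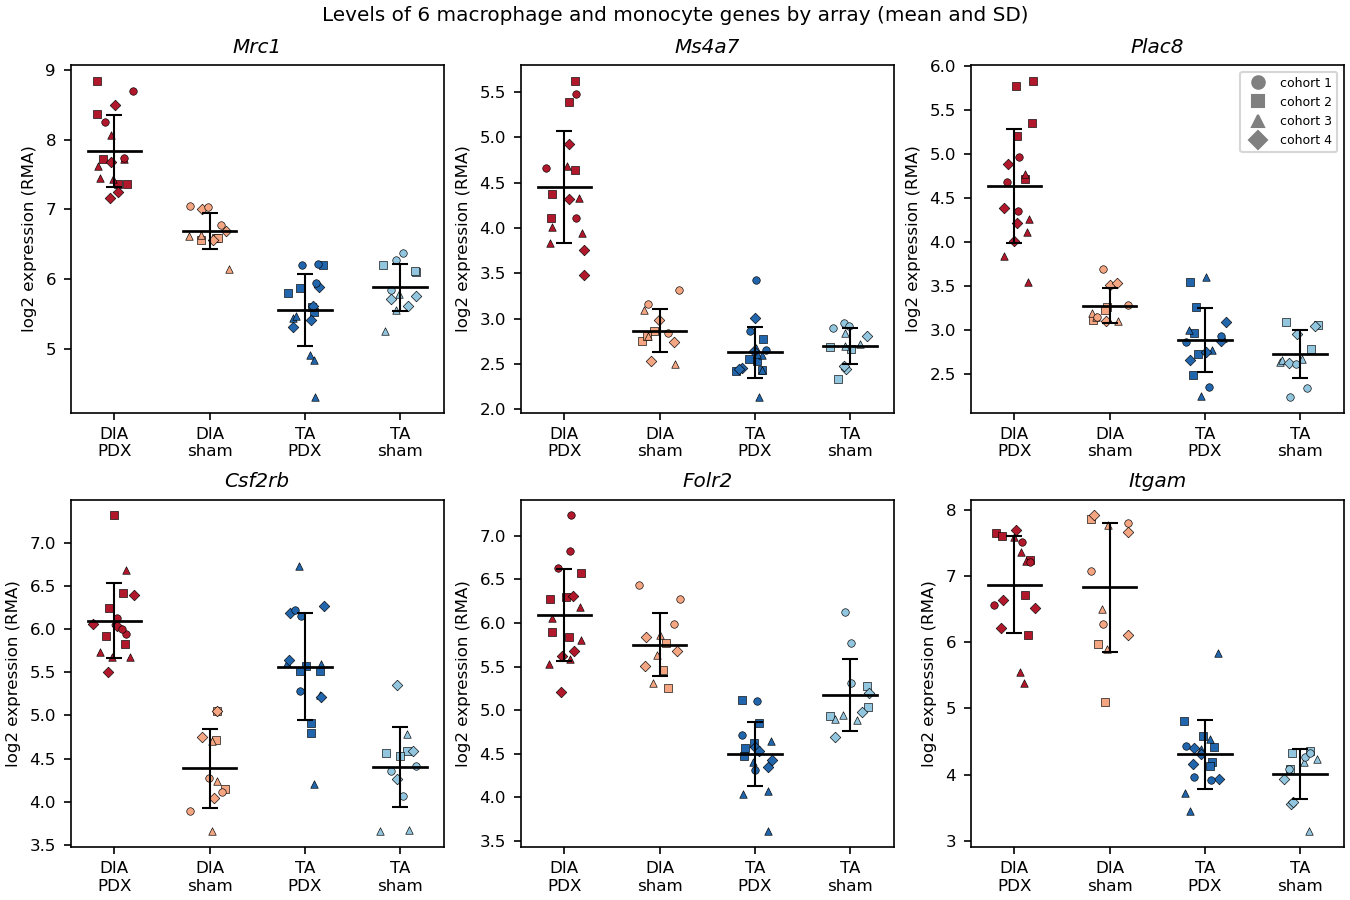
Log2 expression of 6 members in every array. Points are arrays, with the marker giving the cohort, and the bar and whiskers are the mean and SD of 17 PDX or 12 sham arrays of DIA and TA. Mrc1, Ms4a7 and Csf2rb do not overlap between PDX and sham diaphragms, Plac8 overlaps at its lowest PDX array, Folr2 is lower in PDX than in sham tibialis anterior, and Itgam is high in both diaphragm groups.

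Among the receptors and adaptors, 6 of 7 rose in the diaphragm. Csf2rb, the shared beta chain of the receptors for GM-CSF and related interleukins, ran from 5.50 to 7.32 (median 6.04) in PDX diaphragms, against 3.66 to 5.05 (median 4.26) in sham diaphragms. The groups did not overlap. Its difference of 1.70 ± 0.16 (3.24-fold, limma adjusted p = 5.61e-07) was the largest of the members. Fcer1g, the signalling chain of activating Fc receptors, ran from 5.29 to 8.38 (median 6.05) in PDX and from 4.66 to 7.12 (median 5.54) in sham diaphragms, a wide overlap, with the arrays of cohort 1 high in both groups. Within cohorts the difference was 0.80 ± 0.12 (1.74-fold, limma adjusted p = 0.000129). Fcgr2b, the inhibitory Fc receptor, ran from 4.89 to 6.71 (median 5.65) in PDX and from 4.25 to 6.10 (median 4.76) in sham diaphragms, again with overlap, and differed by 0.72 ± 0.21 (1.65-fold, limma adjusted p = 0.0222). Its call was lost in 3 of 29 fits that left out 1 array: PDX cohort 1 replicate 2, sham cohort 1 replicate 1 and sham cohort 3 replicate 3, with a highest adjusted p of 0.0524. The call of Fcgr2b was also lost without cohort 1, without cohort 2 and without cohort 4, with limma adjusted p up to 0.11. The activating receptors Fcgr3 and Fcgr1 rose by 0.72 and 0.58, and the adaptor Tyrobp (DAP12) by 0.56. The call of Tyrobp was lost without cohort 2 and with the neutrophil mean or the fibroblast mean as a covariate. The lysosomal protein gene Laptm5 had a difference of 0.39 (adjusted p = 0.295). Of the 2 effectors, Ctss, the protease cathepsin S, ran from 5.97 to 8.16 (median 7.03) in PDX and from 5.27 to 6.72 (median 5.98) in sham diaphragms, a partial overlap. It rose by 1.06 ± 0.18 (2.08-fold, limma adjusted p = 0.000394), and Cybb, the catalytic chain of the phagocyte oxidase, had a difference of 0.07 (adjusted p = 0.899).

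The median of the members was above 0 in all 4 diaphragm cohorts, with different sizes. The median log2 difference of the 37 members was 0.93, 1.05, 0.53 and 0.46 in cohorts 1, 2, 3 and 4, with 35, 37, 35 and 29 members above 0. Over all genes the median was -0.016, -0.0188, 0.00539 and -0.00524. Within single cohorts, 2, 20, 7 and 0 members passed as higher by limma after adjustment. Of all genes, 0.0216%, 2.21%, 0.604% and 0.0647% did. Csf2rb differed by 1.93, 1.71, 1.77 and 1.38 in cohorts 1 to 4, Ms4a7 by 1.64, 2.02, 1.36 and 1.37, and Mrc1 by 1.27, 1.35, 1.19 and 0.90. The differences of these 3 genes were above 0 in every cohort, and Ms4a7 and Mrc1 did not pass within cohorts 1 and 4 by limma. Plac8 differed by 1.29, 2.18, 0.96 and 0.99, Cd68 by 1.22, 1.42, 1.71 and 0.93, and Ccr2 by 1.57, 1.75, 0.53 and 0.20. Ccr2 had the widest spread of these 6 genes, which were those with the smallest adjusted p in the diaphragm. By role, the median of the monocyte genes was 1.19, 1.52, 0.52 and 0.27 in cohorts 1 to 4, and that of the resident genes 0.93, 1.11, 0.92 and 0.55. A limma F test of equal tumour effects in the 4 diaphragm cohorts passed no member after adjustment, where 0.00431% of all genes passed. At an unadjusted p under 0.05 it passed 4 members (Ccr2, Plac8, Cd14 and Fcer1g) where 7.44% of all genes did, and Ccr2 had an unadjusted p of 0.000265 (adjusted 0.206). The smaller cohort values are therefore not shown to differ between tumours.

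**Figure D3:**
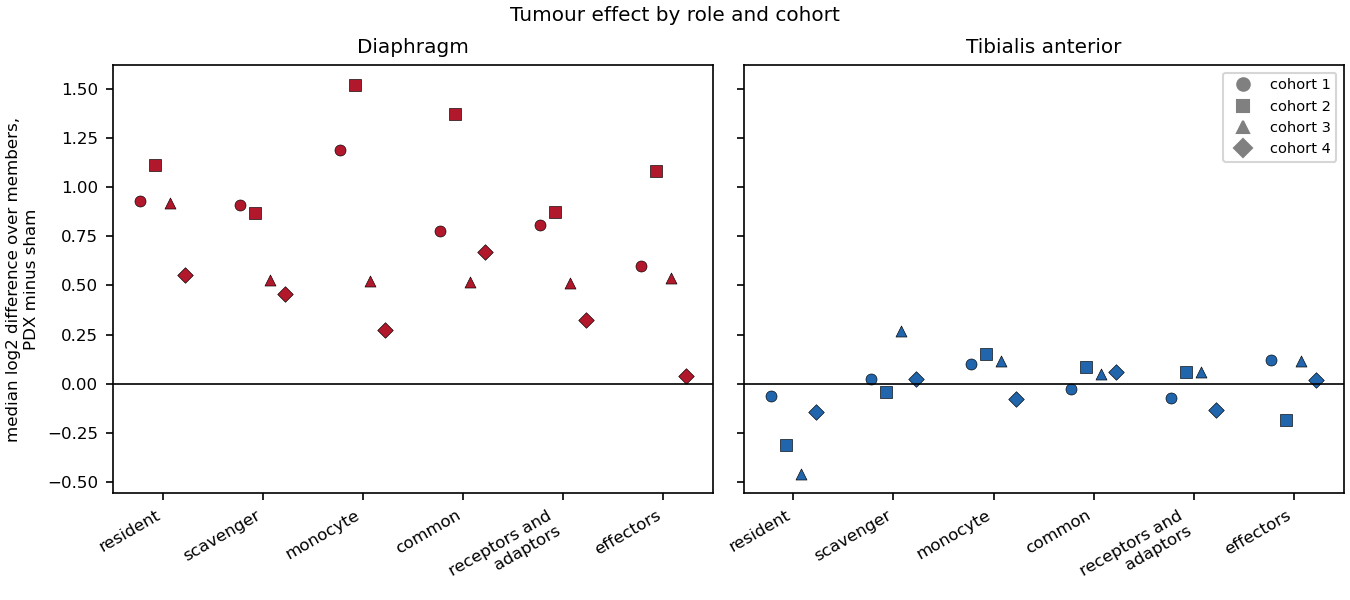
Tumour effect by role and cohort. Each point is the median log2 difference PDX minus sham over the members of a role in 1 cohort, diaphragm left and tibialis anterior right, and the marker gives the cohort. All 24 diaphragm medians lie above 0, with monocyte genes between 0.27 and 1.52, and the resident medians of the tibialis anterior lie below 0 in all 4 cohorts. The resident gene Cd163 by itself was above 0 in all 4 cohorts of the tibialis anterior.

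Far fewer members changed in the tibialis anterior of the same cohorts: 3 of 37 members rose, where 6.32% of all genes did, and 2 fell, where 6.53% of all genes did. These counts lie near the background. In both groups of this muscle, 15 of the 37 members had means below 3.78, near background, where a change may be understated or missed. The median log2 difference was -0.0104, against -0.00509 over all genes, with 18 of 37 above 0. The members that rose were Csf2rb, Lgals3 and Cd163, and all 3 also rose in the diaphragm. They were the 3 members higher in all 4 cohorts, against 13.9% of all genes. Csf2rb ran from 4.20 to 6.73 (median 5.57) in PDX, against 3.67 to 5.35 (median 4.48) in sham tibialis anterior, with overlap, and rose by 1.20 ± 0.19 (2.30-fold, limma adjusted p = 8.84e-05). Lgals3 ran from 6.31 to 7.56 (median 6.66) in PDX and from 5.71 to 6.46 (median 6.20) in sham muscles, overlapping at the lowest PDX array, and rose by 0.65 ± 0.07 (1.57-fold, limma adjusted p = 2.87e-07). Cd163 rose by 0.29 ± 0.08 (limma adjusted p = 0.0166), a call lost without cohort 1, without cohort 4 and with the cohort as the replicate. Neutrophils also make Csf2rb and Lgals3, and 3 of 14 neutrophil genes rose in this muscle. With the mean of those 14 genes as a covariate, Csf2rb and Lgals3 kept their calls and Cd163 lost it. Of the 14 neutrophil genes, 12 had means below 3.78 in every group, near background, so their mean may follow neutrophils poorly. The part of neutrophils in these differences was therefore not tested.

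The 2 members that fell in the tibialis anterior were resident macrophage genes that rose in the diaphragm. Folr2 ran from 3.62 to 5.12 (median 4.53) in PDX, against 4.69 to 6.13 (median 5.01) in sham tibialis anterior. The groups overlapped between 4.69 and 5.12, and Folr2 fell by 0.65 ± 0.10 on the log2 scale, a level 1.57-fold lower in PDX mice (limma adjusted p = 8.06e-05). Lyve1 ran from 4.97 to 6.19 (median 5.53) in PDX and from 5.55 to 6.38 (median 5.85) in sham muscles, with wide overlap, and fell by 0.29 ± 0.08 (limma adjusted p = 0.0175). Lyve1 lost its call without cohort 3, with the cohort as the replicate, with the neutrophil mean as a covariate and with the replicate block by sample number (adjusted p = 0.203), when Folr2 was the 1 member that fell. Without PDX cohort 3 replicate 3 of the tibialis anterior, 4 members fell. Mrc1, Folr2, Lyve1 and F13a1 were lower in PDX mice in all 4 cohorts. They were 10.8% of the members, a smaller share than the 14.6% of all genes with that pattern. Cd163, also a resident macrophage gene, was higher in all 4 cohorts. Mrc1 (-0.27, adjusted p = 0.101) and F13a1 (-0.28, adjusted p = 0.0968) did not pass the limma test. Markers of fibroblasts, 10 of 10, and of tendon, 5 of 6, fell in the same muscles, with medians of -1.09 and -1.61, and their part in the lower Folr2 and Lyve1 was not tested. With the mean of the tendon markers as a covariate, no member passed by limma and 1 had an unadjusted p under 0.05, and in that fit 0 of all named genes were called higher and 1 lower. The F test between cohorts passed no member in the tibialis anterior, where 0.0129% of all genes passed, and 2 (Lgals3 and Adgre1) at an unadjusted p under 0.05, where 7.33% of all genes did.

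The difference between the muscles was tested directly, as the tumour effect in the diaphragm minus that in the tibialis anterior. It was positive and past the threshold for 22 of 37 members, where 3.66% of all genes were. None was negative and past it by limma, where 2.67% of all genes were, nor at an unadjusted p under 0.05, where 9.4% of all genes were. The median difference was 0.77. It was largest for Ms4a7 (1.64 ± 0.19, adjusted p = 8.46e-08), Mrc1 (1.44 ± 0.19, adjusted p = 9.03e-07) and Cd68 (1.41 ± 0.28, adjusted p = 0.000791) by limma. By role it passed for 6 of 7 resident, 2 of 5 scavenging, 4 of 8 monocyte, 4 of 8 common, 5 of 7 receptor and adaptor genes and 1 of 2 effectors. Csf2rb (0.49 ± 0.26, adjusted p = 0.317) and Lgals3 (0.11 ± 0.13, adjusted p = 0.743), which rose in both muscles, did not pass, so their effect is not shown to differ between the muscles. With each of the 58 arrays dropped once, Tyrobp lost its call 35 times (adjusted p up to 0.0804) and Fcgr2b 19 times (up to 0.075). That of Fcgr3 was lost without diaphragm array PDX cohort 1 replicate 2, sham cohort 1 replicate 3 or sham cohort 2 replicate 1, with adjusted p up to 0.0576.

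The muscles also differed without a tumour. In sham mice, 29 of 37 members were higher in the diaphragm than in the tibialis anterior, where 15.2% of all genes were. None was lower by limma after adjustment or at an unadjusted p under 0.05, against 24.5% and 30.7% of all genes. The median gap was 0.59, against -0.0851 over all genes. Itgam ran from 5.09 to 7.92 (median 6.79) in sham diaphragms, against 3.15 to 4.35 (median 4.15) in sham tibialis anterior. The muscles did not overlap, and the gap of 2.82 ± 0.28 (7.05-fold, limma adjusted p = 2.05e-11) was the largest of the members. Cybb (2.26), Laptm5 (2.18), Lyve1 (2.03), Adgre1 (1.86) and Msr1 (1.72) followed. Of these 6 genes only Lyve1 rose with the tumour in the diaphragm, where the tumour effects of the other 5 lay between 0.06 and 0.49. Csf2rb (-0.02, adjusted p = 0.951) and Ms4a7 (0.17, adjusted p = 0.376), with the largest tumour effects, had no gap past the test. Markers of other cells moved with the gap: 5 of 5 lymphatic endothelium genes were higher in the sham diaphragm (median gap 2.42, beside 2.03 for Lyve1), as were 8 of 8 genes of mesothelium, the lining of the body cavities (median 2.44), and their part in it was not tested. All 11 measured hepatocyte genes were higher in the sham diaphragm too, with a median gap of 3.06. Liver RNA was high on 5 of the 12 sham diaphragm arrays (hepatocyte mean above 7.32). The part of liver RNA in the gap was not tested. The tumour effect and this gap share the sham diaphragm arrays, so no relation between them was tested. With each of the 58 arrays dropped once, Ms4a6b lost its call 18 times (adjusted p up to 0.0879) and Trem2 11 times (up to 0.09).

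**Figure D4:**
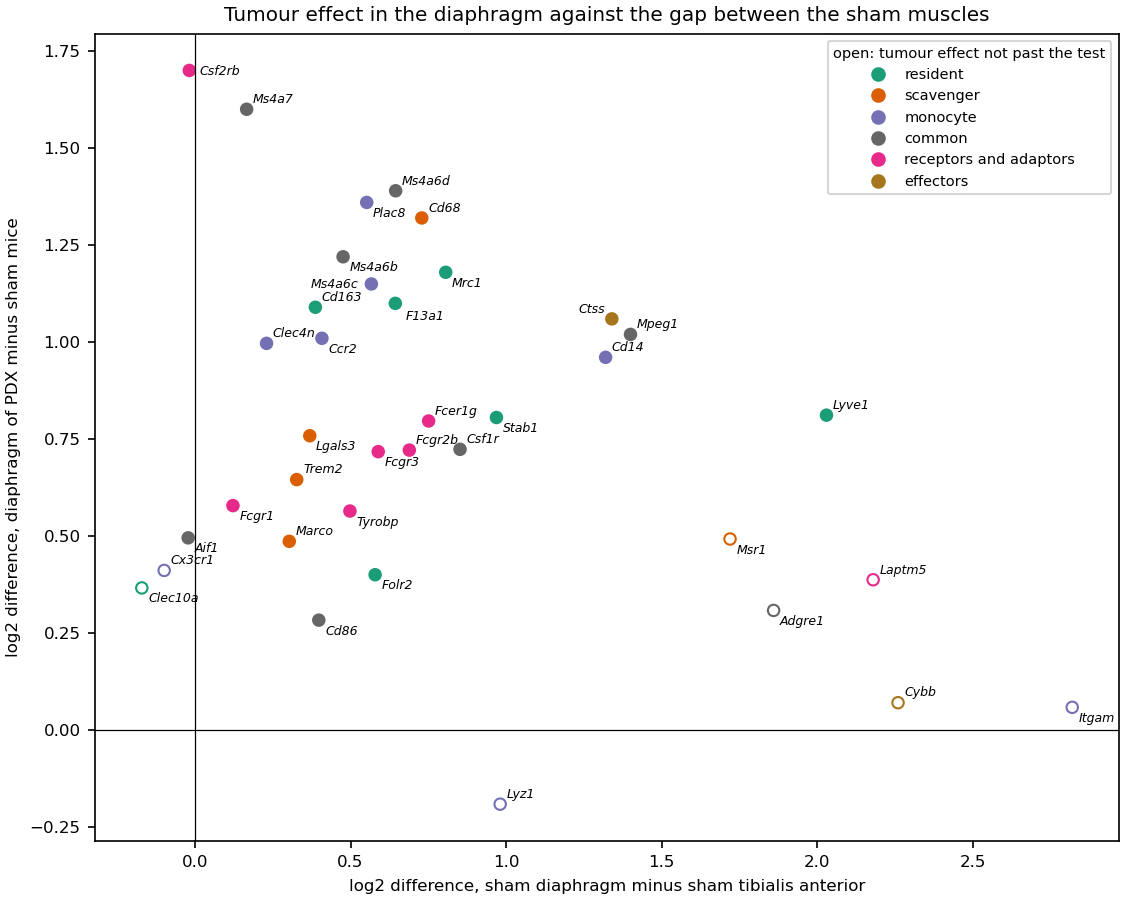
Tumour effect in the diaphragm (vertical, log2 PDX minus sham) against the gap between the sham muscles (horizontal, log2 DIA minus TA) for the 37 members, coloured by role. Open points did not pass the test of the tumour effect. Itgam, Cybb, Laptm5, Adgre1 and Msr1 lie at the right with tumour effects from 0.06 to 0.49, and Csf2rb and Ms4a7 lie at the top with gaps of -0.02 and 0.17. Both axes use the sham diaphragm arrays.

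Markers of macrophages of neighbouring places were read as well. The diaphragm faces the peritoneal cavity and the liver, and 7 genes of peritoneal cavity macrophages, a list added after values were seen, were all higher in sham diaphragm than in sham tibialis anterior, with a median gap of 2.22. They include Gata6 (2.22), the transcription factor that sets the identity of these cells. Their mean per array ran from 5.88 to 7.23 in PDX and from 5.45 to 7.37 in sham diaphragms, against 4.38 to 5.64 in PDX and 4.34 to 4.81 in sham tibialis anterior. With the tumour, 2 of the 7 rose in the diaphragm (median -0.0491) and 2 in the tibialis anterior (median -0.102). For 1 of the 7 the difference between the muscles was negative and past the test. With the mean of the 7 genes as a covariate, 30 members rose with the tumour in the diaphragm, where 1376 of the 23185 named genes did. The part of these 7 genes in the gap between the sham muscles was not tested. Of 6 Kupffer cell genes, which mark liver macrophages, 4 were higher in sham diaphragm than in sham tibialis anterior. None passed for the tumour effect in the diaphragm by limma (1 at an unadjusted p under 0.05), and the defining gene Clec4f had a difference of -0.0307 (adjusted p = 0.98).

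Liver RNA differed between diaphragm arrays within both groups. All 11 measured hepatocyte genes were higher in sham diaphragm than in sham tibialis anterior. Their mean ran from 3.97 to 10.9 in PDX diaphragms and from 3.93 to 10.8 in sham diaphragms. None of the 11 passed for the tumour effect in the diaphragm by limma, and none had an unadjusted p under 0.05. Without the 11 diaphragm arrays above 7.32 (6 PDX and 5 sham), 22 members rose. Cohort 1 was then left with 1 PDX and 1 sham array and cohort 3 with 1 sham array, and a lone array was assumed to vary like the other groups. On the diaphragm arrays with a hepatocyte mean under 5 in cohorts 2, 3 and 4 (8 PDX and 5 sham, with 1 sham array in cohort 3 under the same assumption), 9 members rose: Lyve1, Stab1, Cd68, Plac8, Cd14, Mpeg1, Ms4a7, Fcgr2b and Csf2rb. On these 13 arrays 36 of 37 members lay above 0 with a median of 0.70, and 27 had an unadjusted p under 0.05. Both of these fits kept fewer arrays, and the part of that in their lower counts of members was not tested. With the hepatocyte mean as a covariate on all 29 diaphragm arrays, 31 members rose, where 1604 of the 23185 named genes did.

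**Figure D5:**
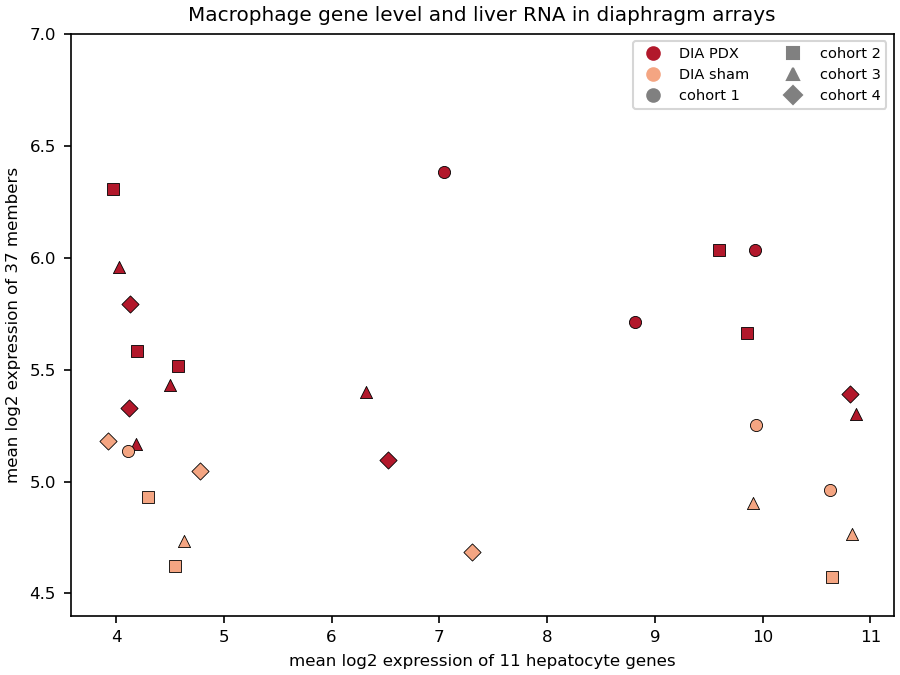
Mean log2 expression of the 37 members (vertical) against that of 11 hepatocyte genes (horizontal) in the 29 diaphragm arrays, PDX in dark red and sham in light red, with markers for cohorts. Hepatocyte means span 3.93 to 10.9 and both groups lie along the whole span. The highest sham array lies at 5.251 on the vertical axis and the lowest PDX array at 5.098.

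Genes of the signals that feed and draw macrophages rose in the diaphragm as well. Of 11 measured growth factor and chemokine genes, 7 rose and none fell in the diaphragm, and 1 rose in the tibialis anterior. Ccl8, a chemokine for monocytes, rose by 1.93 (adjusted p = 2.91e-05) and Ccl12, a mouse ligand of Ccr2, by 1.22 (adjusted p = 0.000452) in the diaphragm by limma. Ccl8 differed by 0.17 (adjusted p = 0.35) and Ccl12 by 0.20 (adjusted p = 0.13) in the tibialis anterior. The difference between the muscles passed for both, at 1.75 for Ccl8 and 1.02 for Ccl12. Csf2rb2, the mouse paralog of Csf2rb that serves the interleukin-3 receptor, rose by 1.17 in both the diaphragm (adjusted p = 0.000131) and the tibialis anterior (adjusted p = 2.84e-07). The sequences of Csf2rb and Csf2rb2 are close, so their probe sets may share signal. Csf2ra, the ligand-binding chain that pairs with Csf2rb, had differences of 0.24 (adjusted p = 0.0585) in the diaphragm and -0.0922 (adjusted p = 0.524) in the tibialis anterior.

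Of 9 measured myeloid transcription factor genes, 6 rose in the diaphragm, among them Runx1 (0.94) and Spi1 (0.76), which encodes PU.1. In the tibialis anterior 1 of the 9 rose, Cebpb (0.67), a factor of inflammatory gene expression. Of 14 further resident macrophage genes, 7 rose and 1 fell in the diaphragm, while 3 fell and none rose in the tibialis anterior. Siglec1, a lectin that binds sialic acid, rose by 1.05 in the diaphragm. The complement genes C1qc and C1qb rose there by 0.97 and 0.92, and C1qb fell by 0.38 (adjusted p = 0.00123) in the tibialis anterior. For 7 of the 14 the difference between the muscles passed and was positive.

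Of 11 further monocyte genes, 2 rose in the diaphragm and 3 fell in the tibialis anterior, where 1 rose. Vcan, a proteoglycan of the extracellular matrix, and S100a4, a calcium-binding protein, which fibroblasts also express, rose by 0.64 and 0.56 in the diaphragm and fell by 0.46 and 0.53 in the tibialis anterior, where the fibronectin gene Fn1 fell by 1.33. Ly6c2, which encodes the Ly6C antigen of inflammatory monocytes, had a diaphragm difference of 0.25 (adjusted p = 0.219). Of 11 further phagocytic genes, 5 rose in the diaphragm, led by Gpnmb (1.17), a glycoprotein of lipid-laden macrophages, and Ctsk (0.67), a protease that fibroblasts also make. In the tibialis anterior 2 of these rose and 2 fell, among them Axl (-0.62), a receptor for the clearance of dying cells. Of 7 proliferation genes, 4 rose in the diaphragm, the largest being Top2a (0.48) and Mki67 (0.48), and none passed in the tibialis anterior by limma (1 at an unadjusted p under 0.05).

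Other cell types were read from their own lists. Of 14 neutrophil genes none passed in the diaphragm by limma (4 at an unadjusted p under 0.05), and 3 rose in the tibialis anterior. Their mean per array was 2.73 to 3.64 in PDX and 2.62 to 2.91 in sham diaphragms, and 2.89 to 3.66 in PDX and 2.73 to 3.09 in sham tibialis anterior. Of 10 lymphocyte genes 1 rose in the diaphragm, Cd4 (0.34, limma adjusted p = 0.0381), which some macrophages also express, and its difference between the muscles passed. Lymphocyte genes had means of 2.46 to 2.73 in PDX and 2.50 to 2.71 in sham diaphragms, below the median of all values. Of 5 lymphatic endothelium genes, 4 rose in the diaphragm (median 0.72), among them Mmrn1 (0.79), Reln (0.73) and Pdpn (0.72), and none passed in the tibialis anterior by limma (1 at an unadjusted p under 0.05). Their mean per array was 6.51 to 7.68 in PDX and 6.21 to 6.58 in sham diaphragms, and their part in the higher Lyve1 and Stab1 was not tested. Of 10 fibroblast genes, 3 rose and 1 fell in the diaphragm. With the fibroblast mean as a covariate 25 members rose there, where 814 of the 23185 named genes did. With the mean of the neutrophil genes, of which 12 of 14 lay near background in every group, 27 members rose, where 1059 named genes did. Of 8 mast cell genes, 3 fell and 5 did not pass in each muscle.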

How the data were processed

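The deposited value table holds log2 expression for 25206 probe sets, which the authors made with RMA in affy 1.36.1 and R 2.15.1, per the submitters' processing notes, on a log2 scale that their range shows. Not given in the sources used here were the genome build, the probe definitions, scan batches and whether RMA ran on all arrays jointly. Probe sets were named from GEO's platform annotation: 23185 had 1 gene symbol, and 2021 without one were left out. Differences were tested with limma 3.58.1 in R 4.3.3 on a mean per cohort and treatment. Each muscle was fitted alone for its tumour effect and its cohorts, and all 58 arrays together for differences between muscles. Tests were two-sided, with Benjamini-Hochberg adjustment over all named genes at 0.05. The number of arrays limits the precision. The fits were tested on simulated data. The members, lists and tests were chosen with earlier results of these data known. Values by array are given for up to 3 members a role, those with the largest difference past the threshold in either muscle; other lists name up to 3 genes. Folr2, Lyve1 and Itgam by array and Csf2ra, Ly6c2, Gata6, Clec4f and Mki67 were named after their values were seen. Alternatives covered scaling, dim probe sets (no detection calls were used), array weights, cohorts, single arrays, blocks by sample number, and marker means as covariates.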

Additional observations from a re-analysis of the deposited data

Results flagged for a closer look

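Only groups of 4 or 5 arrays, the PDX groups of cohorts 2, 3 and 4, were examined for single arrays, gene by gene. Sham groups and cohort 1, with 3 arrays a group, were not. Of 222 such sets of values, 8 held an array far from the others of its cohort, where chance gives about 1 in 20. In PDX diaphragms of cohort 3, replicate 1 had a log2 level of 6.06 for Cd163 against 5.28 to 5.43 in the others, and 5.38 for Fcgr3 against 4.42 to 4.68. In PDX diaphragms of cohort 4, replicate 2 had 5.36 for Ms4a6c against 4.19 to 4.36, and replicate 4 had 4.57 for Tyrobp against 5.25 to 5.38. In PDX tibialis anterior of cohort 3, replicate 1 had 7.96 for Cd68 against 4.90 to 5.65, and replicate 3 had 5.53 for Lyve1 against 4.97 to 5.08. In PDX tibialis anterior, replicate 1 of cohort 2 had 2.94 for Cd86 against 2.48 to 2.61, and replicate 2 of cohort 4 had 4.35 for Fcgr3 against 3.70 to 3.79.

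For 22 members the tumour effect (log2 PDX minus sham) differed between the muscles by limma, and was larger in the diaphragm than in the tibialis anterior. The difference, DIA minus TA, was 1.64 for Ms4a7, 1.44 for Mrc1, 1.41 for Cd68, 1.38 for F13a1, 1.35 for Ms4a6d, 1.23 for Ms4a6b and 1.22 for Plac8. It was 1.11 for Ctss, 1.10 for Lyve1, 1.08 for Ms4a6c, 1.05 for Folr2 and 1.02 for Clec4n. It was 0.97 for Stab1, 0.89 for Fcer1g, 0.88 for Csf1r, 0.85 for Ccr2, 0.80 for Cd163, 0.77 for Fcgr2b and 0.71 for Fcgr1. The smallest were 0.68 for Trem2, 0.63 for Fcgr3 and 0.55 for Tyrobp. For Folr2 and Lyve1 the tumour effects had opposite signs, up in the diaphragm and down in the tibialis anterior, and both passed the test in each muscle. Folr2 kept its diaphragm call in 11 of 17 alternatives, with a difference of 0.0279 in cohort 4. Lyve1 kept its tibialis anterior call in 8 of 13. Both tibialis anterior differences turned positive with the tendon mean as a covariate, at 0.0353 for Folr2 and 0.123 for Lyve1.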

How the results depend on the processing

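The count of members higher in the diaphragm was 9 to 31 over 17 alternatives, and the median difference 0.63 to 0.87. It was 9 on liver-poor diaphragm arrays of cohorts 2 to 4, a setting added after seeing the data that keeps 13 of 29 arrays. The count with a larger tumour effect in the diaphragm than in the tibialis anterior was 12 on the same arrays and 14 with dim probe sets left out, which tests fewer members. The sham counts and medians kept within 1.5 times over 11 alternatives. None of these left out diaphragm arrays by their liver RNA or adjusted for it. In the tibialis anterior, the count of members lower was 4 with array weights, 1 without cohort 3, 1 with the cohort as the replicate, 1 with the neutrophil mean as a covariate and 0 with the tendon mean. With the tendon mean the count higher was also 0, and the median (0.117), Folr2 (0.0353) and Lyve1 (0.123) turned positive; the cause was not tested. Leaving out 1 array gave 27 to 31 members higher in the diaphragm (median 0.72 to 0.79), 19 to 23 for the difference between muscles (0.71 to 0.83) and 27 to 29 for the sham gap (0.58 to 0.63). In the tibialis anterior it gave 3 to 3 higher and 2 to 4 lower, 4 without PDX cohort 3 replicate 3 (median -0.0373 to 0.0167). Sham and PDX samples of 1 number come from different animals, so the block by sample number within a muscle does not pair samples of an animal. Sample numbers are not stated to tie the muscles of an animal. Correlations of deviations between sham and PDX samples of 1 number were over 0.1 in 0 of 12 pairs in the tibialis anterior and 5 of 12 in the diaphragm (-0.586 to 0.647). Between the muscles they were over 0.1 in 4 of 29 (-0.222 to 0.222), and 13 of 29 arrays matched their own number best, 7 of them among the 8 of cohort 2, where all 8 were positive. With the replicate block by sample number, 29 members were higher in the diaphragm, with Aif1 and Cd86 lost and Clec10a and Cx3cr1 gained, and 3 were higher and 1 lower in the tibialis anterior. With the replicate block joining the muscles as a fixed term, 21 passed for the difference between muscles and 30 for the sham gap.
Calls kept in under 2 of 3 alternatives were those of Cd86 (6 of 16 alternatives), Marco (10 of 17) and Folr2 (11 of 17) in the diaphragm, Cd163 and Lyve1 (8 of 13 each) in the tibialis anterior, Tyrobp (5 of 13) and Fcgr3 (8 of 13) for the difference between muscles, and Trem2 (7 of 11) for the sham gap.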
